A study of Homo sapiens with 13 samples.

Results

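The labelled share of each mRNA was measured at the end of a 12 h pulse of 4-thiouridine (4sU), which cells use in place of uridine when they make RNA. The share is the count of a gene's nascent reads, as called by the authors and written as labelled counts here, divided by the count of all reads of the gene, in the 2 libraries taken at 0 h. Protein-coding genes with at least 50 total counts in each of these libraries were kept, which gave 8027 of the 59204 genes in the tables and 8027 of the 19443 protein-coding genes. The cells were K562, an established chronic myeloid leukaemia line with erythroid features. Both libraries of 0 h came from cells kept in 30 µM 4sU for 12 h, with fresh medium every 3 h, and collected straight after the wash. The other 10 labelled libraries came from cells treated alike and then kept in 3 mM uridine for 1, 2, 4, 8 or 12 h, with 2 replicates each, and 1 library came from cells without 4sU. RNA of Drosophila S2 cells was added to every library as a 5% spike-in. The labels do not say that replicates were separate cultures, so p-values reflect only how these samples differ among themselves, which may be technical variation.

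In SLAM-seq, RNA is alkylated so that a built-in 4sU is read as C, and a read with such conversions is taken to come from RNA made during the pulse. An mRNA that is made and degraded quickly is replaced during the pulse and so carries label in most of its copies, whereas a long-lived mRNA still consists largely of copies made earlier. The libraries were made from the 3′ ends of mRNAs, so a read can show conversions only at the T positions near the end of the transcript.

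The 2 libraries of 0 h held 10064385 and 9004529 counts, of which 35.9 and 36.1% were labelled, against 17425584 counts and 0.00633% in the library without 4sU. Of the members, 7753 had no labelled count without 4sU and 18 were above 1% there, with a highest value of 5.47%. A gene at 0 could hold up to 2.98e-05 and 3.33e-05% of the counts of the libraries of 0 h and up to 1.72e-05% of those without 4sU. Intervals and such floors cover counting error only. Of 15 erythroid and K562 markers, 14 had 50 counts in both libraries of 0 h, and their sums were 13406 and 12317 CPM (counts scaled to library size) at 0 h against 5148 CPM without 4sU. Megakaryocyte markers reached 50 counts in 0 of 8 cases, with VWF, PPBP, PF4, GP9 and GP1BA at 0. Of 11 granulocyte and monocyte markers only LYZ reached it, and of 11 lymphocyte markers only CD3D. Over 648 spike-in genes of high count, the first principal component, with 66.2% of the variance, split the libraries. Together lay 7 chase libraries, those of 0, 1 and 2 h and replicate 1 of 4 h. The other 5, replicate 2 of 4 h and those of 8 and 12 h, lay with the library without 4sU. A share is taken within a library, but the comparisons of 0 h with later times or with no 4sU below span this split.

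The median member was 59.2% ± 0.223 labelled (SD, n = 2 libraries), with medians of 58.8 and 59.1% in the single libraries. Here and for gene lists, the median is over each gene's mean share. The SD is that of the 2 library medians, which can both lie on the same side of it. Labelled reads were thus spread over genes unevenly, since the pooled counts of all members were only 38.9 and 39.4% labelled. The 10th percentile was 23.8%, the middle 50% of genes lay between 41.7 and 69.9%, and the 90th percentile was 76.3%. A share over 90% was reached by 3 genes and a share under 10% by 134. The replicates differed by 2.82 percentage points in the median gene, and their shares had a Pearson correlation of 0.960 over 8027 genes, as a description.

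**Figure D1:**
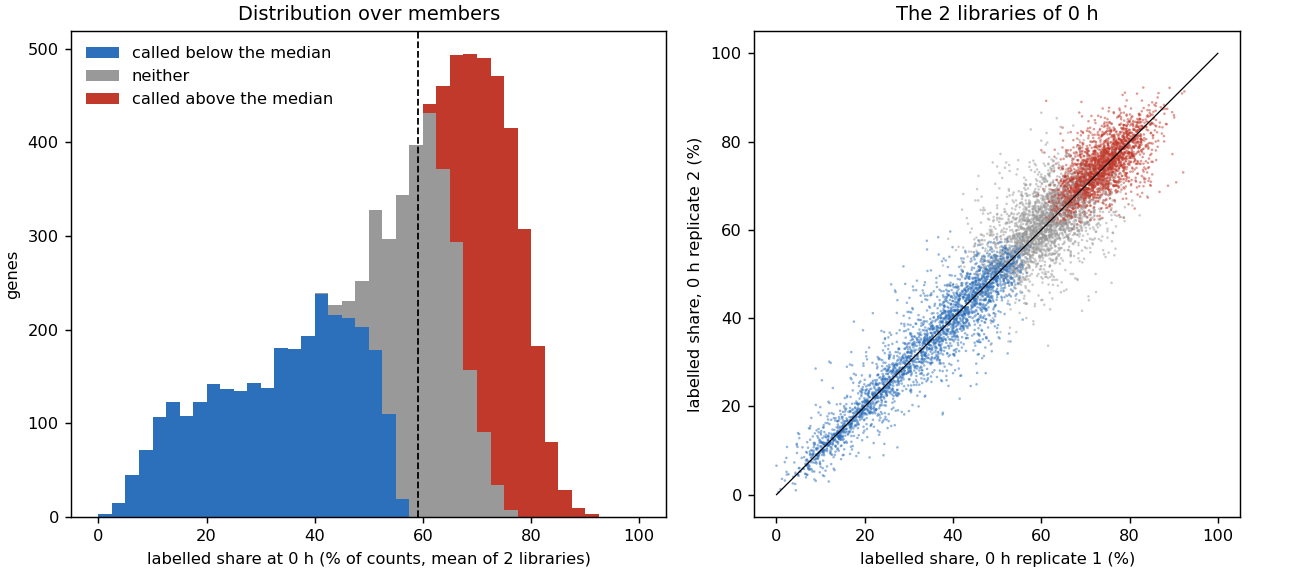
Left, number of genes by labelled share at 0 h (% of counts, mean of 2 libraries), stacked by call against the median (dashed line at 59.2%). Right, share in replicate 2 against share in replicate 1 with the line of equality, each point a gene in the colour of its call; the points follow the line over the whole range, with most genes between 40 and 80%.

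Each gene's labelled counts were tested against the median share with edgeR's quasi-likelihood F-test, adjusted by Benjamini-Hochberg over all 8027 members, at a false discovery rate of 0.05. Above the median were 2490 genes (31.0%), below it 3016 (37.6%), and 2521 (31.4%) passed in neither direction. Of the 5506 called genes, 5505 lay on the same side in both libraries, which follows largely from a test on these same libraries. Of all 8027 members, called or not, 7317 lay on the same side of each library's own median. Set against the pooled share of all counts, 36.0%, the split became 6020 above and 1208 below, so that genes between these levels turn from below to above. A second comparison set each gene against the median share of the 10% of members nearest to it in T content of the last 300 bases, named genes of like T content below. There 1956 genes (24.4%) were above and 2669 (33.3%) below. Above in both were 1253 genes and below in both 2272. Every list count against the median is to be read beside the 31.0% above and 37.6% below of all members. Counts against genes of like T content are to be read beside 24.4 and 33.3%. Of the 51 gene lists described below, 28 had more genes below than above the median, and against the pooled share 22 of these had more above than below. The 6 that did not were mitochondrially encoded mRNAs, cytosolic ribosomal proteins, respiratory chain subunits, glycolysis enzymes, globins and red cell membrane genes, and interferon response genes. Where a list turned against genes of like T content, this is given beside it. Without replicate 1 or replicate 2 of 0 h, a count above or below fell by over 1.5 times in 17 lists each.

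The 12 highest shares among called genes with at least 200 counts in each library belonged to genes of mixed function. RHEB, the GTPase that activates mTORC1, had 2018 of 2298 counts labelled in replicate 1 and 1743 of 1974 in replicate 2, or 87.8 and 88.3%. Both values lay far above the median, by 0.57 ± 0.029 on the log2 scale (SE, adjusted p = 8.85e-19, edgeR). SHOC2, a scaffold of RAS-MAPK signalling, was 85.7 and 88.4% labelled. MED20, a subunit of the Mediator complex that links transcription factors to RNA polymerase II, had 90.1 and 85.5%. FBXO30, an F-box protein of the ubiquitin pathway, had 87.9 and 86.3%. In each of these genes both libraries lay above the 90th percentile of the members. This and the p-value of RHEB follow largely from their choice as the highest shares in the same libraries.

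Also among them were RAD21, CKS2 and HMMR. RAD21, a cohesin subunit, was 87.5 and 87.3% labelled. CKS2, which binds cyclin-dependent kinases, was 85.9 and 87.0%, and HMMR, a spindle protein, 85.4 and 86.8%. All of these shares were above those of genes of like T content as well, by 16.2 points for RAD21, 17.9 for CKS2 and 17.1 for HMMR. The rest of the 12 highest were MAGEA6, ZNF587B, CLINT1, MAT2B and LSM1, with mean shares between 85.7 and 91.9%. MAGEA6, a cancer-testis antigen, was highest of all members with 92.4 and 91.4%, but it has near-identical copies in its family, as ZNF587B has among zinc finger genes, so the counts of both are uncertain.

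The lowest shares, chosen by the same rule, belonged to a mixed set of metabolic enzymes, membrane proteins and mitochondrial genes. Their distance from the median and its p-value follow largely from that choice as well. CYBA, the membrane subunit of the NADPH oxidase, had 4 of 444 counts labelled in replicate 1 and 5 of 397 in replicate 2, or 0.901 and 1.26%. This is a log2 ratio of −5.76 ± 0.230 to the median (SE, adjusted p = 9.70e-22, edgeR), with both libraries near the floor of the range. DPP7, a lysosomal peptidase, was 1.91 and 3.20% labelled. UCP2, a carrier of the mitochondrial inner membrane, was 4.23 and 2.42%. FAM178B had 3.71 and 2.54% over 2693 and 2320 counts, so its low share rests on many reads. ATP5F1D, a subunit of ATP synthase, was 4.29 and 4.99%.

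DES, the muscle intermediate filament desmin, FUOM, ACY1 and ADAM15 lay between 3.69 and 5.19% on average. MT-ND4 and MT-ND3, complex I subunits encoded by mitochondrial DNA, were 3.79 and 4.04% and 4.91 and 4.51%. MTRNR2L10 was lowest of all members with 0.443 and 0.545%, but its sequence is a near copy of a mitochondrial ribosomal RNA and its counts are uncertain. Of these genes CYBA and DPP7 had T contents of 9.33 and 15.0% in the last 300 bases, against a median of 31.0% over members, while UCP2 was at that median. In each of the 12, the share was also below that of genes of like T content.

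**Figure D2:**
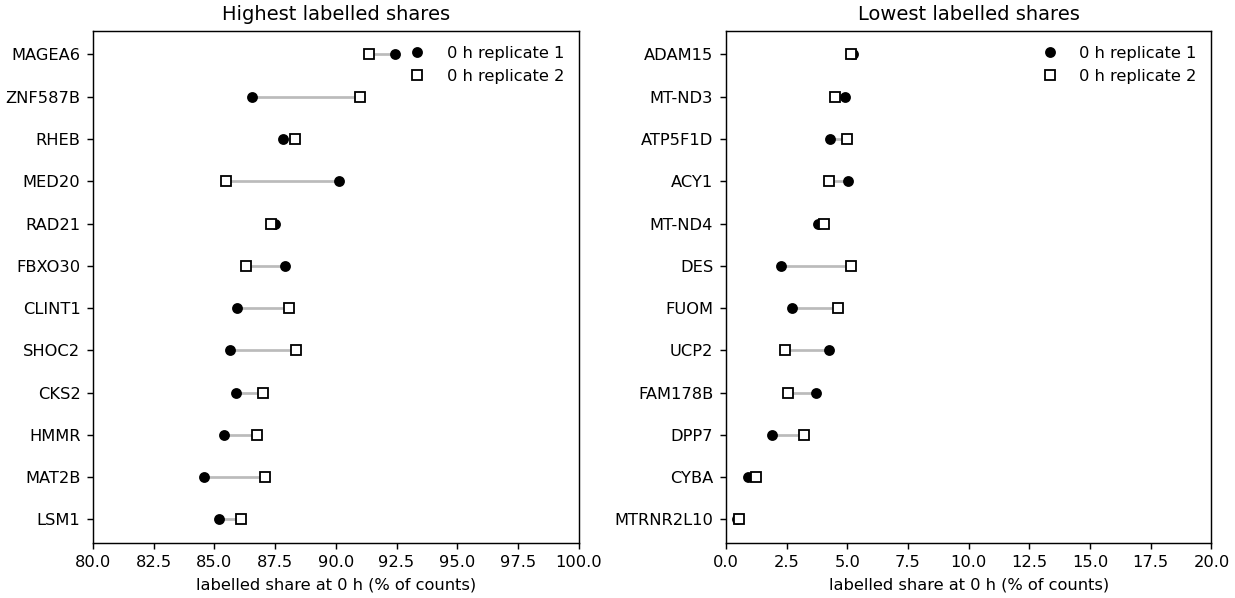
Labelled share at 0 h (% of counts) of the 12 highest (left, axis from 80 to 100%) and 12 lowest genes (right, axis from 0 to 20%) with at least 200 counts in each library. Filled circles are replicate 1 and open squares replicate 2; the bars join them, and no gene of either panel comes near the median of 59.2%.

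Genes of cell division reached high shares as a group. Of 37 measured mitosis genes, 30 were above the median and 4 below, beside 31.0 and 37.6% of all members. Their median share was 74.3% ± 0.314. Against genes of like T content, 26 were above and 1 below, and the median difference was 10.9 points, against −0.08 over all members. NDC80, a kinetochore protein, had 90.1 and 86.0%, the highest of the list, and CDK1, the kinase that drives entry into mitosis, 84.2 and 84.4%. KIF11 and KIF23, spindle motors, were 82.0 and 78.7% and 81.6 and 82.2%. The 4 genes below were CDC25B, CDC20, BIRC5 and NUSAP1, at 41.7 to 53.6%; CDC20 and BIRC5 were nevertheless above genes of like T content.

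Other cell cycle lists were less one-sided, beside 31.0% of all members above the median and 37.6% below. Of 19 G1/S regulators, 8 were above and 4 below, with E2F8, a repressor of the E2F family, at 84.4 and 88.2%. CDT1, which licenses replication origins, was below the median with 40.6 and 39.7% and above genes of like T content by 7.58 points. DNA replication genes had 18 above and 17 below out of 44, but 13 and 17 against genes of like T content and 13 and 15 without replicate 2, from POLD2, a DNA polymerase delta subunit, at 14.8 and 16.3% to GINS1, a helicase subunit, at 79.9 and 84.5%. Replication-dependent histones, which have near-identical copies and mostly lack poly(A) tails, gave 3 above and 6 below among 13. The lowest was H1-2, a linker histone, with 6.93 and 7.88%, and all are uncertain.

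Some families of transcription and signalling regulators also reached high shares, although not every family did. Of 10 KLF and SP factors, 7 were above and 2 below (median 75.1% ± 3.17), and of 13 DUSP, SPRY and SPRED genes, which dampen MAP kinase signalling, 8 were above and 3 below (75.2% ± 0.947). Against genes of like T content these became 3 above and 0 below, and 5 above and 2 below, beside 24.4% above and 33.3% below over all members. KLF9, a zinc finger factor, was 80.8 and 81.1% labelled. SPRY4 had 89.1 and 92.2% and DUSP1, a MAP kinase phosphatase, 84.0 and 85.7%, both on fewer than 100 counts per library. The lowest of the families were KLF16, at 37.7 and 45.2%, and DUSP13, at 26.1 and 29.5%.

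Immediate early genes, which are switched on within minutes of a stimulus, had a median share of 65.2%. The medians in the single libraries were 65.9 and 66.0%. Of 18 measured, 8 were above, 1 below and 9 passed in neither direction, and against genes of like T content 6 were above and 0 below. Without replicate 1 or 2 of 0 h, 4 and 5 were above. DUSP1, given above, was the highest of them. MYC, the growth-driving transcription factor, was 78.6 and 78.3% labelled, and MCL1, which protects cells from apoptosis, 69.9 and 68.1%. IER2 was at the median with 58.4 and 59.9%, and JUNB, a subunit of AP-1, had 51.7 and 64.1% on 180 and 167 counts. IER3 was below with 46.6 and 42.1%. At 12 h of chase the shares of these genes were 0.839% for MYC, 1.33% for MCL1, 0.486% for IER2, 0.960% for JUNB and 0.0834% for IER3.

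GATA1, KLF1 and NFE2, erythroid transcription factors, lay below the median of all members but above genes of like T content. GATA1, the central factor of the lineage, was 42.9 and 46.3% labelled, a log2 ratio of −0.41 ± 0.055 to the median (SE, adjusted p = 5.46e-08, edgeR). KLF1, which activates globin genes, had 44.0 and 40.3%, and NFE2, 52.1 and 55.8%. The call of NFE2 was lost without replicate 1 (adjusted p = 0.381, edgeR) and with DESeq2 (adjusted p = 0.142). Their T contents were 19.3, 17.7 and 24.0%, and against genes of like T content they were higher by 11.1, 9.53 and 7.26 points. TAL1 and LMO2, also erythroid factors, had higher shares. LMO2 was above the median with 66.7 and 69.2%, a call lost without replicate 2 (adjusted p = 0.0564, edgeR), and TAL1, at 61.9 and 62.7%, passed in neither direction. Over 19 haematopoietic transcription factors, 4 were above and 9 below the median, and 9 above and 3 below genes of like T content. MYB, which keeps progenitors cycling, was above the median with 70.5 and 69.4%. It was not called against genes of like T content (log2 ratio 0.028, adjusted p = 0.537, edgeR). CBFB, the partner of RUNX1, was highest with 87.8 and 80.0%, while LYL1 was lowest with 26.4 and 21.7%.

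Zinc finger genes and chromatin regulators filled the range, beside 31.0% of all members above the median and 37.6% below. Of 224 ZNF genes, 72 were above and 51 below, or 65 and 33 against genes of like T content, with a median share of 63.0% ± 0.910. Without replicate 2 the ZNF genes had 37 above and 38 below the median, and without replicate 1, 36 above. ZBTB genes had 11 above and 4 below among 22, led by ZBTB11 with 82.8 and 83.4%. Polycomb genes had 11 and 5 among 24, Mediator subunits 13 and 7 among 30, and circadian clock genes 6 and 1 among 12, with CRY1, a repressor of the clock, at 78.9 and 91.1%. Against genes of like T content ZBTB genes had 5 above and 1 below, Polycomb genes 7 and 6, Mediator subunits 12 and 7, and clock genes 3 and 1. RNA polymerase II subunits went the other way, with 2 above and 8 below the median among 12. They held POLR2K at 80.8 and 83.4% and POLR2I at 8.98 and 10.4%, so that 2 subunits of the same enzyme lay near opposite ends of the range.

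In signalling and protein turnover, 20 of 30 RAB GTPases, which direct vesicle traffic, were above and 5 below. Their median share was 70.3%, with medians of 72.1 and 70.8% in the single libraries. RAB1A had 82.7 and 79.8%, and RAB13, the lowest, 20.5 and 14.9%. F-box genes had 17 above and 9 below among 36. Over all members 31.0% were above and 37.6% below. Against genes of like T content the RAB GTPases had 11 above and 5 below and the F-box genes 9 and 6, beside 24.4 and 33.3% of all members. Targets of p53 had 7 above and 3 below the median among 19, or 6 and 4 against genes of like T content. They ran from FDXR at 14.2 and 14.0% to PPM1D, a phosphatase that feeds back on p53, at 82.4 and 85.1%. ATF4 target genes of the amino acid response had 9 above and 5 below among 22, with MTHFD2 at 82.3 and 82.6%. BCL2 family genes had 3 above and 7 below among 12. Among them BCL2L11, which promotes apoptosis, had 75.2 and 73.8%, BCL2L1, which prevents it, 51.5 and 48.9%, and BAD 15.5 and 18.8%. TFRC, the transferrin receptor, was 77.5 and 76.7% labelled, and ABL1, a part of the BCR-ABL1 fusion of this line, 71.2 and 72.9%.

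**Figure D3:**
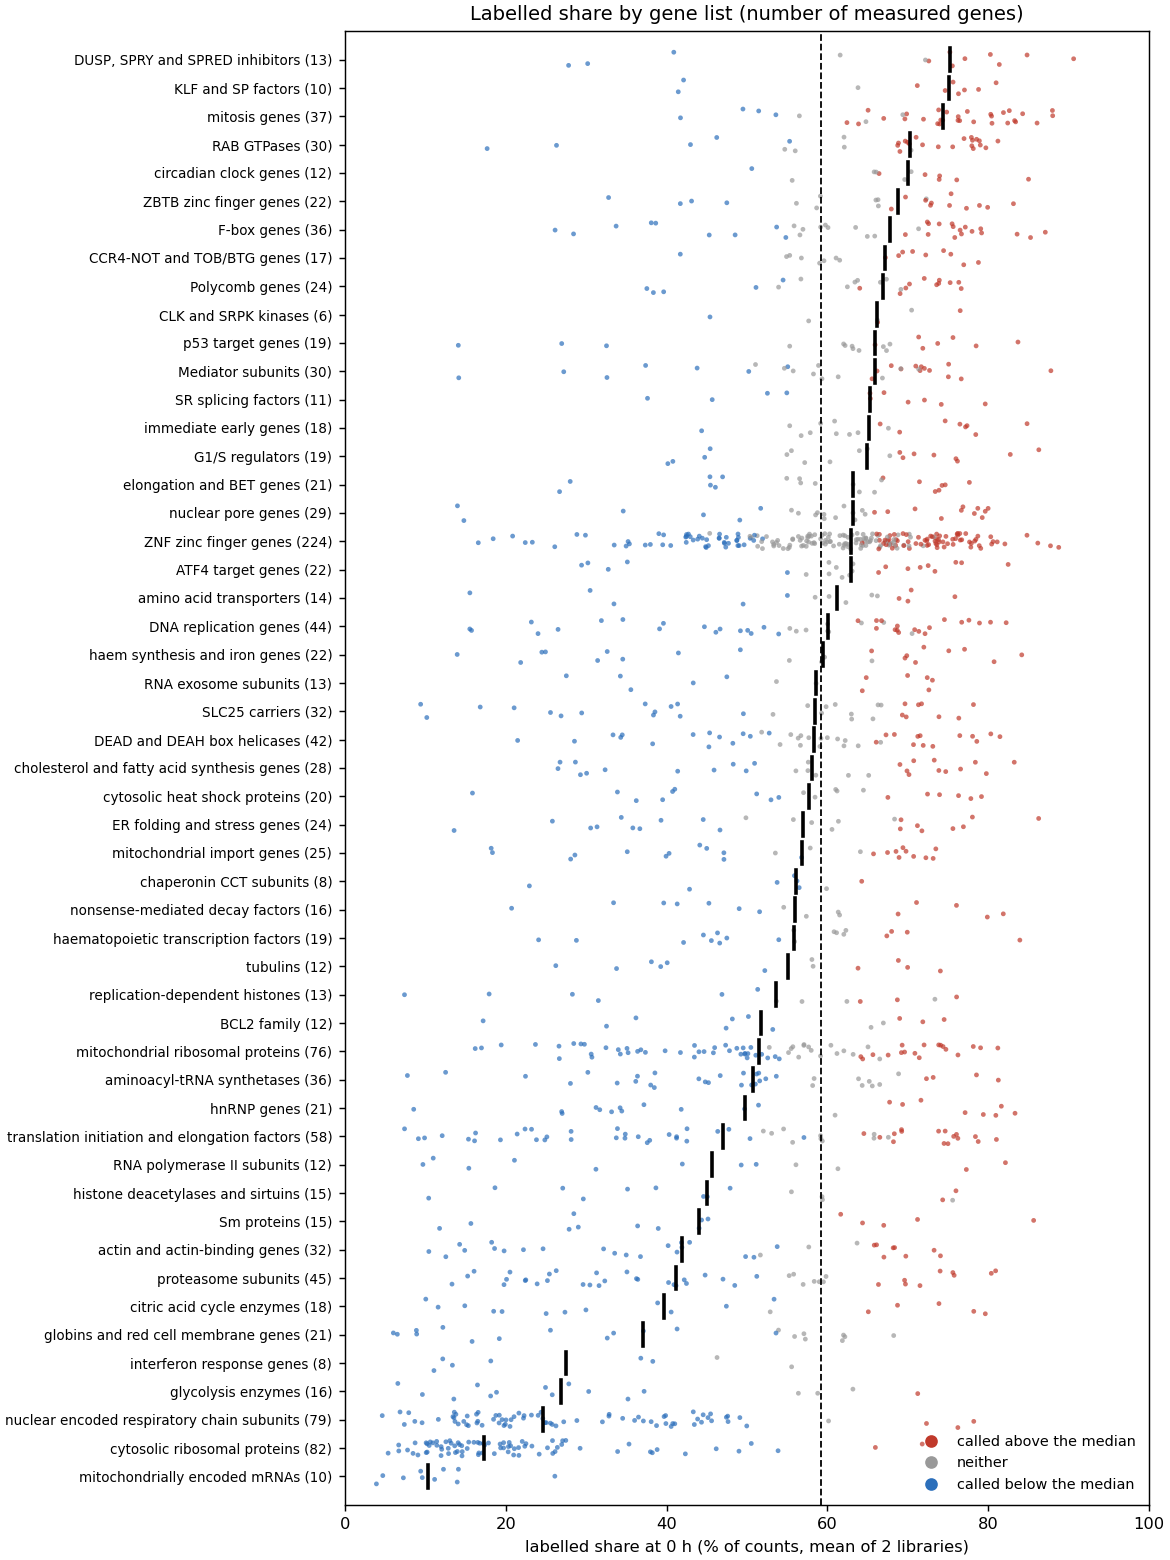
Labelled share at 0 h (% of counts, mean of 2 libraries) of the measured genes of 51 lists, ordered by their median (black bars), with the number of measured genes in brackets. Each point is a gene, coloured by its call against the median of all members (dashed line at 59.2%); the lists run from mitochondrially encoded mRNAs at 10.4% to the DUSP, SPRY and SPRED genes at 75.2%, and most lists hold genes on both sides.

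The machinery that processes and degrades mRNA was spread from end to end, beside 31.0% of all members above the median and 37.6% below. Genes of the CCR4-NOT deadenylase and the TOB and BTG proteins had 9 above and 1 below among 17 (median 67.2% ± 1.94), and SR splicing factors 7 above and 4 below among 11. Against genes of like T content the CCR4-NOT, TOB and BTG genes had 6 above and 3 below. The SR factors had 3 above and 6 below there, so their direction turned. SRSF6 was 79.1 and 80.2% labelled and SRSF9 37.3 and 37.9%, at T contents of 36.3 and 37.3%. Nonsense-mediated decay factors had 5 above and 7 below among 16, but 6 and 5 against genes of like T content, with SMG8 at 81.4 and 82.4% and UPF2, a core factor, at 21.9 and 19.5%. Sm and LSM proteins had 5 above and 10 below among 15, from SNRPD2, a core of spliceosomal particles, at 12.1 and 11.4% to LSM1, which acts in decapping, at 85.2 and 86.1%. Of 21 hnRNP genes, 8 were above and 12 below, and HNRNPA1L3, at 8.26 and 8.85%, is a near copy of HNRNPA1 and uncertain.

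Cytosolic ribosomal protein mRNAs had some of the lowest shares of any abundant group. Of 82 measured, 80 were below the median and 2 above, with a median of 17.3% ± 0.594, and against genes of like T content 78 were below and 2 above. RPL36 had 5.48 and 5.26% over 19545 and 16444 counts. The 2 above the median were RPL26L1, with 74.0 and 69.6%, and RPL36AL, with 67.7 and 64.2%, both expressed paralogs of other ribosomal protein genes. RPL36AL was not called against genes of like T content (log2 ratio 0.014, adjusted p = 0.741, edgeR). Ribosomal protein genes have many processed pseudogenes, so reads may have been split or moved among copies.

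Translation factors and tRNA synthetases were less uniform. Translation initiation and elongation factors had 16 above and 32 below among 58. EEF1A1, the elongation factor that brings tRNA to the ribosome, was 23.9 and 23.7% labelled over 115015 and 99845 counts, and EEF1E1 82.1 and 80.0%. Among 36 aminoacyl-tRNA synthetases 4 were above and 24 below, from VARS1 at 8.22 and 7.32% to MARS2 at 80.5 and 82.1%. Against genes of like T content 9 of the synthetases were above and 12 below, near the 24.4 and 33.3% of all members. Proteasome subunits and their assembly factors had 9 above and 29 below among 45, and PSMG2, an assembly chaperone, was highest with 79.9 and 82.0%. Of 20 cytosolic heat shock genes, 6 were above and 9 below, with HSPB1 at 16.6 and 15.1% and HSPA1B, which has a near-identical copy, at 78.9 and 79.4%.

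The 10 measured mRNAs of the mitochondrial genome were all below the median, and also below genes of like T content, by a median of 41.1 points. Their median share was 10.4%, with medians of 10.5 and 11.5% in the single libraries. MT-ND1 was highest with 24.8 and 27.4% and MT-CYB, of complex III, had 9.82 and 9.42% over 23197 and 21585 counts. Nuclear genes of the same respiratory chain had 75 below and 3 above among 79, with a median of 24.6% ± 0.361. Of the 3 above, SDHD, a subunit of complex II, was highest with 77.1 and 79.3%. Mitochondrial ribosomal proteins lay higher, at 51.5% (51.8 and 52.0% in the single libraries), with 18 above and 42 below among 76. Of 18 citric acid cycle enzymes, 5 were above and 12 below, from IDH2 at 10.5 and 9.65% to DLST at 76.6 and 82.7%.

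Enzymes of central metabolism and red cell proteins were likewise low. Glycolysis enzymes had 12 below and 1 above among 16, with GAPDH at 9.71 and 9.55%, PFKL at 7.47 and 5.69% and HK2, the one above, at 69.9 and 72.6%, although without either library of 0 h none was above. Of 21 globin and red cell membrane genes, 13 were below and 0 above, with a median of 37.1% ± 0.767. HBA2, an adult alpha globin, had 6.23 and 5.82%, and HBG1 and HBG2, the fetal gamma globins, 37.7 and 36.6% and 34.1 and 32.7%. Globin genes have near-identical copies and are uncertain. Their totals were higher at 0 h than in the library without 4sU, by 2.76 on the log2 scale for HBA2, 1.45 for HBG1 and 2.17 for HBG2. High totals and low labelled shares thus stood together in these genes.

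Cholesterol and fatty acid synthesis genes were balanced, with 11 above and 11 below among 28, from FASN at 27.8 and 25.2% to MSMO1 at 82.2 and 84.2%. Haem synthesis and iron genes had 9 above and 9 below among 22, beside 31.0 and 37.6% of all members. Actin and actin-binding genes had 8 above and 21 below among 32. ACTB itself was 41.3% labelled in both libraries, and TMSB4X, which binds actin monomers, 9.89 and 11.0%. Of 8 measured interferon response genes, 6 were below and 0 above, and IFITM3, one of a family of near copies, had 10.6 and 11.5%.

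Labelled share was higher in genes with more T at the 3′ end. Members were split into deciles by the T content of the last 300 bases of the coding transcript that ends farthest downstream in GENCODE 29. The median share was 32.8% in the decile with a median of 18.7% T, 60.7% in the fifth decile, at 30.0% T, and 70.8% in the last decile, at 40.7% T. Of the first decile 650 of 802 genes were below the median of all members, and of the last decile 461 of 803 were above it. Over 8026 genes the Spearman correlation of share and T content was 0.54, with all points taken from the same 2 libraries. Shares still ranged widely at like T content, from 46.0 to 81.4% between the 10th and 90th percentiles of the last decile. Which of these transcript ends K562 cells use was not measured here.

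**Figure D4:**
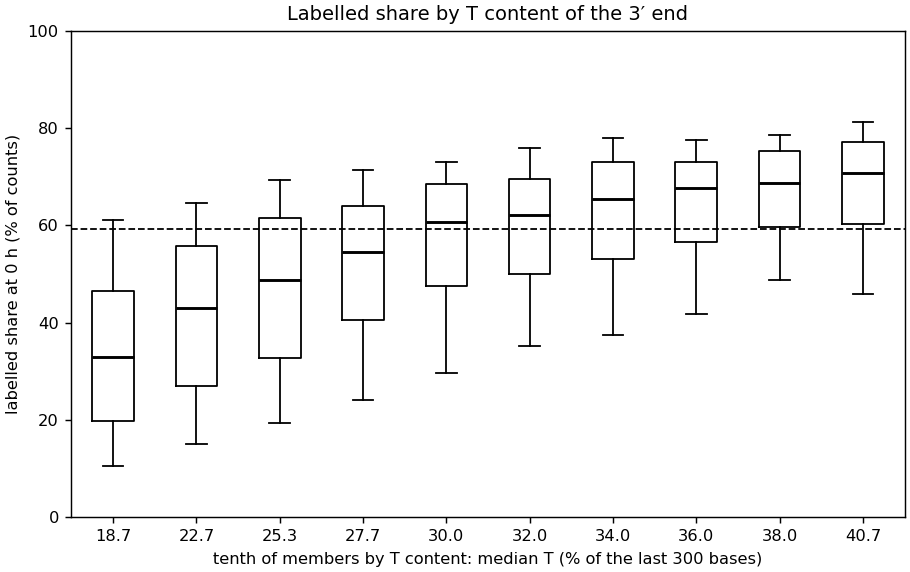
Labelled share at 0 h (% of counts) by decile of members in T content, labelled with the median T (% of the last 300 bases) of each decile. Boxes span the middle 50% of genes with the median as a line, whiskers reach the 10th and 90th percentiles, and the dashed line marks the median of all members at 59.2%; the median is 32.8% in the first decile and 70.8% in the last.

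The median share also differed between chromosomes. Genes of chromosome 19 had a median share of 43.2% and a median T content of 24.0%, and those of chromosome 22 had 49.3 and 26.3%. Genes of chromosome 13 had a median share of 67.1% at 34.7% T. The 269 genes of chromosome X had a lower share than the median member, 55.3%, although their T content, 32.0%, was above the median. Against genes of like T content the medians were −4.22 points for chromosome 19, −1.73 for chromosome 22, 2.57 for chromosome 13 and −2.93 for chromosome X. Longer transcripts had higher shares, with a Spearman correlation of 0.32 over 8026 genes for the share and 0.16 for its difference from genes of like T content.

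Sequence elements known from mRNA decay were looked up in the same 300 bases on the transcript strand. ATTTA, the core of AU-rich elements, was present in 3661 of 8026 members (45.6%), the longer AU-rich form TTATTTATT, which contains ATTTA, in 114 (1.42%), and TGTANATA, the form bound by Pumilio proteins, in 782 (9.74%). Median shares with and without them were 64.5 and 52.9% for ATTTA, 68.6 and 59.0% for TTATTTATT, and 66.3 and 58.1% for TGTANATA. The T content of the end differed likewise, with medians of 34.3 and 27.7% for ATTTA, 35.0 and 31.0% for TTATTTATT, and 35.0 and 30.3% for TGTANATA. As differences from genes of like T content, the medians were 1.16 and −1.29 points for ATTTA, 4.62 and −0.16 for TTATTTATT, and 2.17 and −0.45 for TGTANATA. Of genes with TGTANATA, 354 were above the median and 145 below, but against genes of like T content 196 were above and 163 below, or 25.1 and 20.8% beside 24.4 and 33.3% of all members. Of the 114 genes with TTATTTATT, 60 were above the median and 19 below, or 52.6 and 16.7% beside 31.0 and 37.6% of all members. Against genes of like T content they had 28 above and 21 below, or 24.6 and 18.4%.

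Genes with TGTANATA included some of high and some of low share, and examples of both were chosen for display. The sites of CKS2, DUSP1, NDC80, CSNK1E and POLD2 are shown from GENCODE 29 on GRCh38, each in the 3′ UTR within the last exon, with the motif in capitals. CKS2 (chr9:89316464-89316487, plus strand), DUSP1 (chr5:172768279-172768302, minus strand) and NDC80 (chr18:2616584-2616607, plus strand) had mean shares of 86.4, 84.8 and 88.0%. CSNK1E, a clock kinase (chr22:38290748-38290771, minus strand), had 50.6% and POLD2 (chr7:44114703-44114726, minus strand) 15.5%. DUSP1, CSNK1E and POLD2 hold the same 8 letters.
CKS2: tgtatatgTGTATATAaggtagta
DUSP1: tactatccTGTAAATAtatcttaa
NDC80: gttgatcaTGTATATAtatccata
CSNK1E: ttttcctgTGTAAATAttggactt
POLD2: gtcggcatTGTAAATAaagcctga

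TTATTTATT is shown in capitals for CENPE, a kinetochore motor (chr4:103105971-103105995, minus strand), C1D, a cofactor of the RNA exosome (chr2:68041393-68041417, minus strand), PRC1, which bundles the midzone of the spindle (chr15:90966210-90966234, minus strand), and ZNF611 (chr19:52702902-52702926, minus strand), all in 3′ UTRs. Their mean shares were 83.3, 73.1, 72.0 and 39.6%, with ZNF611 below the median. A match is a description of the letters in this window and does not show that a protein binds there.
CENPE: gaattgttTTATTTATTtgtatatt
C1D: tctttgtgTTATTTATTgcaaagaa
PRC1: aagcactaTTATTTATTcttccgct
ZNF611: agtctttgTTATTTATTgaaaacct

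Abundant mRNAs had lower shares. In the decile of members with the highest CPM at 0 h the median share was 37.3%, and in the other deciles it lay between 56.4 and 63.0%. The abundant decile had a T content of 29.7%, near the median, and was 16.8 points below genes of like T content. Totals at 0 h were also set beside the library without 4sU, on the scale of log2(CPM + 0.5), as values only since that library has no replicate. The 1068 genes at least 1 unit higher at 0 h had a median share of 67.1%, the 5628 within 1 unit 58.5%, and the 1331 at least 1 unit lower 54.6%. In bulk RNA, fewer cells of a type and less RNA per cell cannot be told apart. The spike-in composition also differed between these libraries, and its part in the totals was not tested.

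The share at the end of the pulse was set beside the later loss of label, measured as the slope of labelled counts over the 10 libraries of 1 to 12 h, which share no library with 0 h. The median slope was −0.26 on the log2 scale per h. Across these libraries the split in spike-in composition followed chase time almost fully, so the slopes cannot tell its part from that of time. In the 803 genes with the steepest slopes the median share was 66.1%, and in the 803 with the shallowest slopes 24.4%. Over 8027 genes the Spearman correlation was −0.45, and for the difference from genes of like T content it was −0.48, as descriptions over points that share libraries. Within deciles of T content it ran from −0.58 in the third to −0.31 in the ninth. With each gene's own total as offset in the slope it ran from −0.61 in the first to −0.18 in the last.

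Mitochondrially encoded mRNAs departed from this relation, with 6 of 10 in the steepest decile. MT-CYB had a slope of −0.73 with 9.82 and 9.42% labelled at 0 h and 0.0581% at 12 h. MT-ND2, with 11.1 and 11.2% over 54849 and 52028 counts, had −0.62, and MT-ATP6, MT-ND5 and MT-ND4L −0.58, −0.67 and −0.55. KLF and SP factors and mitosis genes reached similar shares with unlike slopes, at medians of −0.58 and −0.25. DUSP1 had the steepest slope of the genes named here, −1.35.

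Of the 803 genes with the shallowest slopes, 53 had a share over the median, and of the 803 with the steepest slopes 257 had one under it. PRPS1, an enzyme of nucleotide synthesis, was 74.7 and 75.4% labelled and had a slope of −0.10. EIF4G2, a translation initiation factor, had 74.9 and 72.8% and −0.11, TRAPPC4, of a vesicle tethering complex, 74.0 and 72.8% and −0.10, and UBA2, of the SUMO activating enzyme, 72.2 and 73.7% and −0.09. ENSG00000275895, at 82.1 and 86.3%, was still 69.8% labelled at 12 h. With the side of the spike-in composition as a factor in the slope, 2 of these 5 stayed in the shallowest decile. In several globins the share at 12 h lay close to that at 0 h. At 12 h it was 37.5% in HBG1, 33.5% in HBG2, 18.4% in HBE1, 7.19% in HBZ and 6.55% in HBA2, beside mean shares at 0 h of 37.1, 33.4, 19.2, 6.52 and 6.02%. Their slopes ran from −0.067 in HBE1 to −0.041 in HBA2, and the median over the 21 globin and red cell membrane genes was −0.11.

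**Figure D5:**
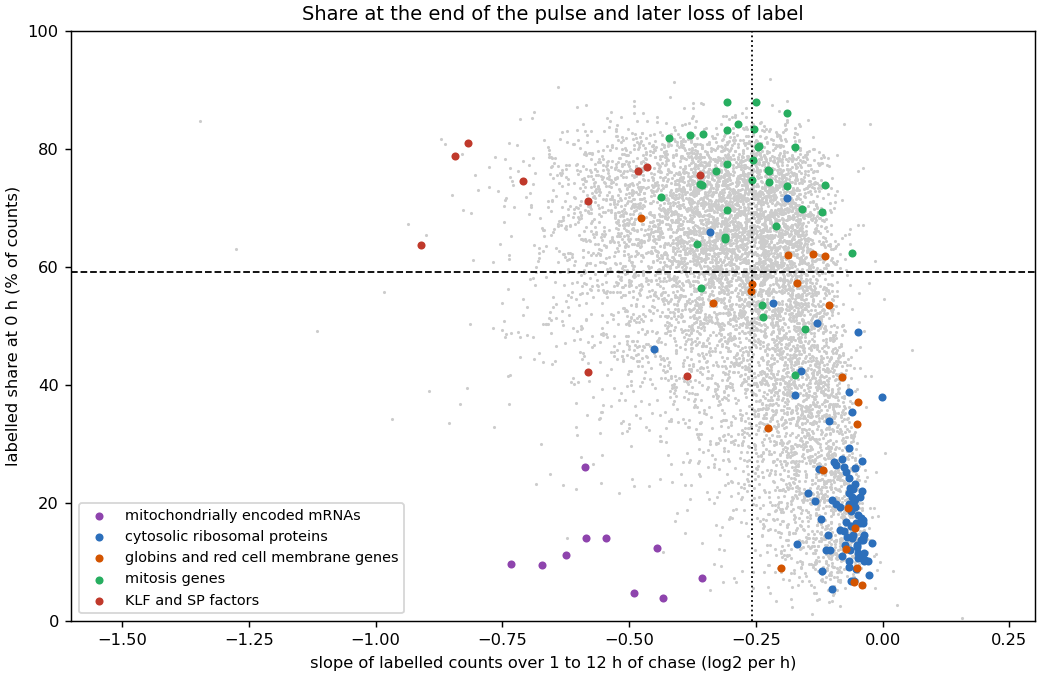
Labelled share at 0 h (% of counts) against the slope of labelled counts over 1 to 12 h of chase (log2 per h), each point a gene, with 5 lists in colour. Lines mark the median share of 59.2% (dashed) and the median slope of −0.26 (dotted); mitochondrially encoded mRNAs sit at low share and steep slope, ribosomal protein genes at low share and shallow slope, and mitosis genes at high share near the median slope.

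The count rule itself moved little. The 327 genes whose lower count was 50 to 59 had a median share of 59.3%, and the 382 protein-coding genes just outside, at 40 to 49, had 57.9%. Their replicates differed by 7.32 and 7.97 points in the median gene, against 2.82 points over all members, so single shares are less certain near the rule.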

How the data were processed

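Libraries were made by SLAM-seq from 3′ ends of K562 RNA, per the labels' protocols. The authors deposited raw counts per gene of all reads, of reads they call nascent, and of spike-in reads. Per the submitters' processing notes, tools were bedtools, Trim Galore 0.6.5 and bcl2fastq 2.17.1.14, and builds dm6 and hg38. How reads were aligned, counted by strand and gene, and called nascent is not given in the sources used here. Counts of near-identical copies may have been split or moved.

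Every column was matched by its name to 1 of the 13 libraries. Of 59204 gene IDs 55838 matched GENCODE 29, which gave biotypes, coordinates and transcript ends. Labelled counts of the 12 chase libraries were fitted as 6 groups with edgeR 4.0.16 in R 4.3.3, with the log of each gene's own total plus the log of the median share as offset, and the coefficient of 0 h was tested (two-sided). In counts simulated for this comparison over 8027 genes, 100% of genes changed by −1 on the log2 scale were called. At −0.5 it was 76%, at −0.25 10% and at 0.25 4%, so small differences were mostly missed. Of the calls, 0% were false, with all unchanged genes set at the median. Upward changes larger than 0.25 were not simulated. Slopes were fitted with TMM effective sizes of the total libraries as offsets. The median total count of a member over the 2 libraries was 298, and the depth limits shares near 50 counts. Deviations of equal replicate numbers correlated between −0.0275 and 0.0826 over 15 pairs of times. Counting error lowers such correlations, so they cannot show whether equal numbers belong together. The main fit treated the libraries as unpaired. Python 3.11.15, pandas 2.3.3, numpy 2.4.6, scipy 1.17.1 and matplotlib 3.10.9 were used.

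The genes, the 51 lists, the 4 marker lists and the tests were chosen with earlier results of these data known. Named were the 12 highest and 12 lowest called shares with at least 200 counts in each library and at most 1% labelled without 4sU, the highest and lowest of each list (not all are reported here), 18 set genes, and 5 genes each of low share with steep slope and high share with shallow slope. Other genes named (CDK1, KIF11, KIF23, CDC20, BIRC5, NUSAP1, RPL36AL, CENPE, PRC1, ZNF611, LMO2, TAL1, HBE1, HBZ, LYZ and CD3D) were chosen after their values were seen. Alternatives were DESeq2 1.42.0, other count minimums, offsets, gene sets and comparisons, a replicate block, and leaving out either library of 0 h. Chosen after seeing the data were T content over 150 or 500 bases or over all annotated ends, the T content comparison without each library, and the spike-in side in the slope.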

Additional observations from a re-analysis of the deposited data

Results flagged for a closer look

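Genes other than protein-coding ones carried label as well, above the level in the library without 4sU, and enter no comparison of the report. The 134 lincRNA genes with 50 counts in both libraries had a median share of 54.6% at 0 h, against 0.00648% of their counts without 4sU. In 115 antisense genes the median was 56.8% at 0 h, against 0.0127% without 4sU, and their reads cannot be told apart from those of the opposite gene if strand was not used. For 618 processed pseudogenes it was 26.1% at 0 h, against 0.0156% without 4sU, and their reads may belong to the genes they copy. The 12 mitochondrial tRNA genes had 14.4% at 0 h, against 0.00617% without 4sU.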

How the results depend on the processing

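Each value below has the 0 h libraries against the stated level, and unless given here the counts above and below over all members stayed within 1.5 times. The cause of the changes was not tested. Against the pooled share, 6020 genes were above and 1208 below. Without 0 h replicate 1 or 2 the counts above were 1702 and 1737 and below 2543 and 2613, and against genes of like T content 1285 and 1359 above and 2178 and 2258 below. The median share was 58.8% with 20 counts, 57.5% with 200, 56.3% with 1 and 57.7% over all biotypes, and 59.1 and 58.8% without replicate 1 or 2. With the replicate number as a block 2470 genes were above and 3016 below, and it changed the call of no gene named. The correlation of share and slope was −0.46 over 2 to 12 h, −0.40 with the gene's own total as offset, −0.44 with the spike-in side, and −0.45 without either replicate.

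Counts of single lists moved more. By over 1.5 times, in at least 1 direction, they moved in 49 of the 51 lists against the pooled share, 24 against genes of like T content (25 to 28 with other windows or ends), 21 with 200 counts, 10 with DESeq2 and 6 with 1 count. Without 0 h replicate 1 or 2 they moved in 17 lists each, and all the counts that moved were lower. The counts above without replicate 1 and 2 were 6 and 4 for ZBTB genes, against 11 with both, 7 and 6 for Polycomb genes (11), 11 and 11 for F-box genes (17), 4 and 4 for haem synthesis and iron genes (9), 5 and 5 for ER folding genes (8), 3 and 3 for citric acid cycle enzymes (5), and 3 and 2 for Sm proteins (5). The circadian clock genes had 2 above without replicate 1 (6), and the CCR4-NOT genes 5 (9) and Mediator subunits 8 (13) without replicate 2. CCT subunits had 3 below without either (6). More genes below than above, or the reverse, turned in 0 lists without replicate 1 and in 3 without replicate 2 (DNA replication, RNA exosome and ZNF genes). Calls were lost without replicate 1 in DUSP1, KLF16, NFE2, BCL2L11, RPL36AL, HK2 and CLK3, and without replicate 2 in NUSAP1, BCL2L11, BCL2L1, HK2, CSNK1E and LMO2.

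Genes named as below the median turned to above against the pooled share, by log2 ratios of 0.21 (CDC25B), 0.46 (CDC20), 0.51 (BIRC5), 0.57 (NUSAP1), 0.16 (CDT1), 0.18 (KLF16), 0.30 (IER3), 0.30 (GATA1), 0.23 (KLF1), 0.58 (NFE2), 0.48 (BCL2L1), 0.063 (SRSF9), 0.044 (HBG1), 0.20 (ACTB), 0.49 (CSNK1E), 0.13 (ZNF611), and 0.33 (CLK3). Against genes of like T content CDC20 turned to 0.14, BIRC5 to 0.079, CDT1 to 0.30, GATA1 to 0.41, KLF1 to 0.38 and NFE2 to 0.20. Calls were lost there in CDC25B, KLF9, DUSP1, KLF16, IER3, MYB, BCL2L11, ABL1, RPL36AL, MARS2, HK2, SIRT1, CLK1, CLK3, C1D and CCT6A. IER2 and JUNB, both uncalled, turned to 0.72 and 0.68 against the pooled share. IER2 was at 0.24 against genes of like T content, 0.00679 with 20 counts, 0.041 with 200, 0.0706 with 1, 0.035 over all biotypes, and 0.020 and −0.00962 without replicate 1 and 2. JUNB was at 0.033 with 1 count, and 0.12 and −0.19 without replicate 1 and 2.

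Depth limits shares near the count rule, and the transcript ends used for T content were not measured in these cells.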

Other observations

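Lists not yet described filled the range between these groups, and their counts stand beside 31.0% above and 37.6% below over all members. Of 15 histone deacetylases and sirtuins, 2 were above the median and 9 below, from HDAC10 at 11.0 and 9.86% to SIRT1, a nuclear deacetylase, at 75.3 and 76.6%. Elongation and BET genes had 7 above and 6 below among 21, but 4 and 9 against genes of like T content, with ELL2, an elongation factor, highest at 77.8 and 77.5%. DEAD and DEAH box RNA helicases had 13 above and 14 below among 42, near the 31.0 and 37.6% of all members. Against genes of like T content they had 16 above and 10 below, beside 24.4 and 33.3%. They ran from DDX49 at 19.3 and 23.6% to DDX42 at 81.7 and 81.2%. RNA exosome subunits and cofactors had 6 above and 5 below among 13, or 4 and 5 without replicate 2, with EXOSC5 at 27.4 and 27.7% and C1D at 72.3 and 73.9%. Nuclear pore genes had 11 above and 6 below among 29. NUP153, of the nuclear basket, was 76.0 and 84.0% labelled and NUP210, a membrane nucleoporin, 12.0 and 16.0%. The kinases of splicing factors had 2 above and 1 below among 6, with CLK1 at 77.9 and 75.1% and CLK3 at 44.0 and 46.8%.

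Of the 8 subunits of the chaperonin CCT, which act in equal numbers in one complex, 6 were below and 1 above, with CCT7 at 23.6 and 22.3% and CCT6A at 63.5 and 65.1%. ER folding and stress genes had 8 above and 10 below among 24, and DNAJB9, an ER cochaperone, was highest at 81.7 and 90.9%. Mitochondrial import genes had 10 above and 12 below among 25, with TOMM7 of the outer membrane at 18.8 and 17.6%. SLC25 carriers had 8 above and 14 below among 32, and SLC25A4, an ADP/ATP carrier, was highest at 78.2% in both libraries. Tubulins and gamma-tubulin complex genes had 4 above and 6 below among 12, with TUBG1 at 75.7 and 72.4%. Amino acid transporters had 4 above and 5 below among 14, with SLC7A1, which carries cationic amino acids, at 76.0 and 75.7% and SLC38A5 at 15.2 and 15.9%.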
